A study of Mus musculus with 7 samples.

Results

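PP cells of mouse pancreatic islets were set against delta cells of the same islets, gene by gene and transcript by transcript. The PP cells were the 324 cells that the authors' cell table assigns to gene cluster 6, named for Ppy, and the delta cells were the 592 cells of cluster 3, named for delta cells, of 5907 cells in all. PP cells numbered 283 in library 1 and 41 in library 2, and delta cells 435 in library 1 and 157 in library 2. Counts were summed over the cells of a cluster in each library, so that each cell type is represented by 2 sums, and the library was the unit of replication.

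Both clusters came from islets of female C57BL/6 mice aged 10 weeks, dissociated to single cells and captured in droplets with a 5′ assay changed by added dNTP and longer extension. Insulin cDNA was cut with Cas9 before sequencing, so the levels of Ins1 and Ins2 are what remained after depletion. The cDNA was sequenced on a Nanopore instrument as long reads. The labels do not say whether the 2 libraries came from separate animals or from pools. The main p-values measure only how far differences between clusters varied from library to library, over the 12 clusters fitted. That variation may be technical. Shifts shared by all clusters of a library do not enter it, because library was a term of the fit.

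PP cells secrete pancreatic polypeptide, a peptide of the neuropeptide Y family that acts on gut motility, appetite and exocrine secretion. Delta cells secrete somatostatin, which restrains the release of insulin, glucagon and pancreatic polypeptide from neighbouring cells, and in mice they often carry neurite-like processes. Both are endocrine cells that store a peptide hormone in dense-core granules and release it when calcium enters the cell.

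Levels are given as CPM, the counts of unique molecular identifiers (UMIs, which count molecules) of a gene relative to the total of the sum, with that total scaled by edgeR's TMM method. The 4 sums held 914467 and 611417 UMIs in PP cells of libraries 1 and 2, and 1022169 and 1649832 UMIs in delta cells. The libraries stood apart in depth, with median UMIs per cell of 2796 and 13076 in PP cells and 2068 and 8991 in delta cells. UMIs of the mitochondrial genome made up 0.625 and 1.27% in PP cells, against 0.880 and 1.66% in delta cells. The 2 libraries shared 5 barcodes, 2 of them in either cluster. Because the authors' clusters were made from the same gene counts, the gene tests are circular in part. Some listed markers of other cells of the islet had no UMI in any of the 4 sums. These were Cdh5, Kdr and Flt1 of 6 endothelial genes and Sox10 of 6 genes of neurons and Schwann cells. Of 7 macrophage genes 5 were at 0, Cd68, Lyz2 and Adgre1 among them. Other members were present: Pecam1 had 9 and 2 UMIs in PP cells and 4 and 18 in delta cells. Esam, also endothelial, had 12 and 21 UMIs in PP cells and 10 and 21 in delta cells. The macrophage gene C1qa had 94 and 60 UMIs in PP cells and 139 and 229 in delta cells.

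The hormone genes followed the names of the clusters. The authors' clustering by transcripts placed 272 of 283 and 40 of 41 of the PP cells in a cluster named for Ppy. It placed 400 of 435 and 151 of 157 of the delta cells in one named for delta cells. That clustering used the same cells, so its agreement with the gene clusters is not independent. Ppy, which encodes pancreatic polypeptide (chr11:102099930-102101319, minus strand, GRCm38), had 244233 and 163761 CPM in PP cells, against 26278 and 40113 in delta cells. Sst, which encodes somatostatin (chr16:23889573-23890958, minus strand), had 4334 and 4835 CPM in PP cells, against 158539 and 120728 in delta cells. The groups did not overlap for either gene. The fitted log2 fold change was 2.71 ± 0.37 (SE) for Ppy and -4.91 ± 0.49 (SE) for Sst, which are descriptions here because these genes mark the clusters. Pyy, the gene of peptide YY, lies on the same strand (chr11:102106676-102107832) with 5356 bp between the genes. It was higher in PP cells, with 129200 and 111891 CPM, against 32781 and 49983 in delta cells (log2 fold change 1.66 ± 0.36). Pyy lost its call with DESeq2 (adjusted p = 0.0581) and without the library block (adjusted p in edgeR = 0.229).

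Delta cells carried Ppy and Pyy well above the level in a cell type that should lack them. Ppy took a median of 22.5 and 13.7% of a cell's UMIs in PP cells, and 2.04 and 3.59% in delta cells. In the stellate cluster, mesenchymal cells that make no islet hormone, the median was 0 and 0.0316% at a median depth of 901 and 3319 UMIs. Sst took a median of 0 and 0.0194% of a cell's UMIs in PP cells, at or below the 0 and 0.0301% in stellate cells. PP cells were deeper, with a median of 2796 and 13076 UMIs, and 103 of 283 and 36 of 41 of them held Sst. The part of free RNA in the Sst of PP cells was not tested. In the sums, Sst had 4334 and 4835 CPM in PP cells, against 3188 and 331 in stellate cells. Ppy was the most abundant of the 8 hormone genes in 241 of 283 and 32 of 41 PP cells, and Sst in 415 of 435 and 152 of 157 delta cells.

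**Figure D1:**
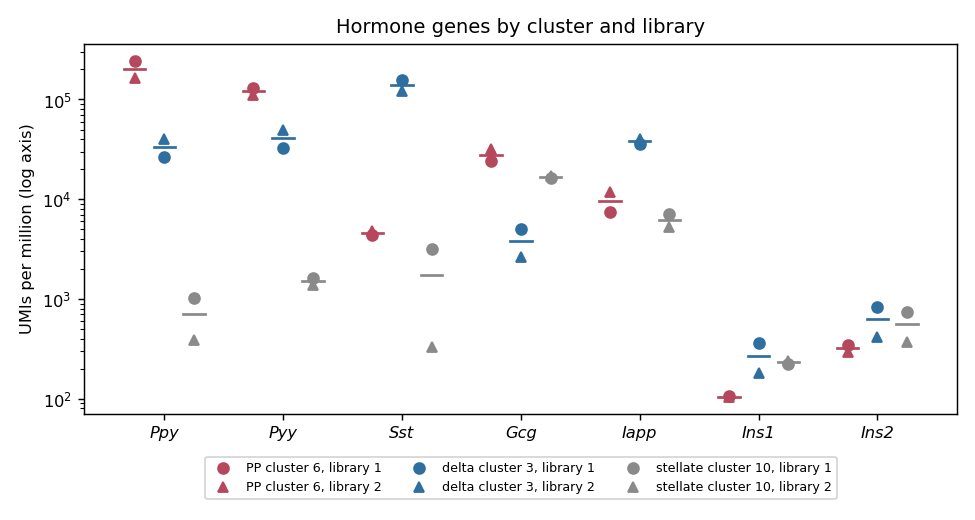
CPM (log axis) of 7 hormone genes in PP cells, delta cells and stellate cells, where circles are library 1, triangles library 2 and bars the mean of both. Ppy at 244233 and 163761 in PP cells lies above 26278 and 40113 in delta cells, and Sst at 4334 and 4835 in PP cells lies below 158539 and 120728 in delta cells.

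The 120 bases upstream of the RefSeq transcript starts of the 3 hormone genes that mark these cells are shown (RefSeq, GRCm38.p6, minus strand, 5′ to 3′), with 2 motifs in capitals: TGACGTCA, the cyclic AMP response element, and TATAAA, a core promoter element, each searched on both strands. The windows are chr11:102101320-102101439 for Ppy, chr11:102107833-102107952 for Pyy and chr16:23890845-23890964 for Sst, whose GENCODE start lies inside its window.
Ppy: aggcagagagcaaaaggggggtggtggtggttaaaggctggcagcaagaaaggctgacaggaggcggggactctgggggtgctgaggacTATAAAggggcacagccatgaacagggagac
Pyy: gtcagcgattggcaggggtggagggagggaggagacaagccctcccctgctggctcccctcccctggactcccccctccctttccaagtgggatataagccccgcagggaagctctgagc
Sst: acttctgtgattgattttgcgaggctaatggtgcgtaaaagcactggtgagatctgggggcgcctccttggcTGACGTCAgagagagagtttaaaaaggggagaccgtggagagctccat
TGACGTCA stands 48 bases upstream of the Sst start and is in 407 of 32851 promoter windows of this length (1.24%). TATAAA stands 31 bases upstream of the Ppy start and is in 2083 of them (6.34%). The Pyy window holds neither motif, and for Pyy the first of 2 listed promoters was used.

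Other hormones split in both directions. Gcg, which encodes glucagon, had 24156 and 31735 CPM in PP cells, against 5080 and 2615 in delta cells (log2 fold change 2.87 ± 0.52). Gcg lost its call without the library block (edgeR adjusted p = 0.0599). In most PP cells Gcg was low, with a median of 0.0640 and 0.529% of a cell's UMIs, while the 90th percentile was 6.86 and 8.63%. The stellate sums had 16318 and 17005 CPM of Gcg, which lies below both PP sums and above both delta sums. Most stellate cells held far less than these sums, with a median of 0.0847 and 0.158% of a cell's UMIs and a 90th percentile of 0.326 and 0.408%. The PP median lay below the stellate median in library 1 and above it in library 2. The part of free RNA in the Gcg difference was not tested. Iapp, the gene of amylin, had 7503 and 11899 CPM in PP cells, against 35734 and 40380 in delta cells (-1.99 ± 0.38). After depletion, Ins1 had 106 and 104 CPM in PP cells, against 359 and 183 in delta cells (-1.33 ± 0.30). Ins2 had 345 and 297 CPM in PP cells, against 830 and 418 in delta cells (-0.92 ± 0.31). Both passed in edgeR. Neither passed with DESeq2 (adjusted p = 0.0556 for Ins1 and 0.410 for Ins2) or without the library block (edgeR adjusted p = 0.143 and 0.389). Ins2 also lost its call in 4 other alternatives, with edgeR adjusted p of 0.0580 to 0.109. Ghrl, the gene of ghrelin, had 2 UMIs in PP cells and 2 in delta cells, all in library 1.

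Across all genes, 1530 of 11554 tested (13.2%) passed a false discovery rate of 0.05 in edgeR's quasi-likelihood test with the library as a block, 806 of them higher in PP cells (6.98%) and 724 lower (6.27%). In 1526 of the 1530, which the test selects for agreement, the difference had the same sign in each library, against 68.0% of all tested genes. Differences of at least 4-fold were held by 112 genes higher and 244 genes lower in PP cells. The split depends on scaling: without TMM, 359 genes were higher and 1319 lower in PP cells, and the median log2 fold change of all genes moved to -0.27 from -0.03. Without the library block 570 genes passed.

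The delta marker list fell almost as a whole. Of 8 delta markers tested, 7 were lower in PP cells and 0 higher. Hhex, a homeobox factor needed for delta cells in mice, had 5.51 and 18.4 CPM in PP cells, against 438 and 326 in delta cells. Rbp4, the carrier of retinol, had 969 and 1320 CPM in PP cells, against 8395 and 7078 in delta cells. Ptprz1, a receptor tyrosine phosphatase, had no UMI in PP cells and 145 and 137 UMIs in delta cells, which is at least 45.5-fold lower in PP cells where 0 is set to a floor of 3 UMIs for the cluster. Ghsr, the ghrelin receptor, had 1 UMI over both PP sums and 37 over both delta sums, a ratio of 17.9 of delta over PP cells (95% exact counting interval 3.02 to 726). Ghsr lost its call with DESeq2 (adjusted p = 0.0950) and without the library block (edgeR adjusted p = 0.0549). Spock3, a secreted proteoglycan, had 2 and 159 UMIs in PP and delta cells, a ratio of 38.5 (10.5 to 320). Counting intervals and floors cover counting error only. Efna5, an ephrin, fell (-2.52 ± 0.45). Lepr, the leptin receptor, had 5.51 and 8.19 CPM in PP cells, against 7.06 and 9.21 in delta cells, and did not pass (edgeR adjusted p = 0.836).

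The PP list was weaker beyond its hormones. Of 5 PP markers tested, 3 were higher in PP cells and 0 lower, namely Ppy, Pyy and Etv1. Etv1, an ETS-family factor, had 329 and 403 CPM in PP cells, against 240 and 245 in delta cells (log2 fold change 0.59 ± 0.17), and lost its call without the library block, without TMM, with DESeq2 and without the low-count filter. Meis2, a homeobox factor, had 279 and 268 in PP cells, against 332 and 355 in delta cells, and did not pass (edgeR adjusted p = 0.277). Id4, an inhibitor of basic helix-loop-helix factors, had 1 UMI in PP cells and 13 in delta cells and did not pass (edgeR adjusted p = 0.194). Aqp3, a water and glycerol channel, had no UMI in any of the 4 sums.

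The largest rises in PP cells, chosen by a rule on size and level, covered enzymes, receptors and surface proteins. Pappa2, a protease of insulin-like growth factor binding proteins, had 206 and 215 CPM in PP cells, against 19.2 and 11.8 in delta cells (log2 fold change 3.81 ± 0.27, edgeR adjusted p = 2.31e-22). It differed by far more than the spread between libraries. Cd9, a tetraspanin of the cell surface, had 383 and 238 in PP cells, against 25.2 and 11.8 in delta cells (4.21 ± 0.28). Ugt2b34, a glucuronosyltransferase, had 184 and 109 in PP cells, against 9.08 and 5.92 in delta cells (4.27 ± 0.31).

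Gpr119, a receptor for fatty acid amides that raises cyclic AMP, had 71.6 and 38.9 CPM in PP cells, against 3.03 and 3.95 in delta cells (3.93 ± 0.46). Edn3, the gene of endothelin 3, had 71.6 and 61.4 in PP cells, against 5.05 and 7.24 in delta cells (3.36 ± 0.37). Upk3a, a uroplakin of epithelial membranes, rose by a log2 fold change of 3.51 ± 0.44, and Apod, a lipid carrier, by 3.37 ± 0.65, though Apod lost its call without the library block. Id3, an inhibitor of basic helix-loop-helix factors, rose by 4.39 ± 0.50, with 28.9 and 79.9 CPM in PP cells, against 5.05 and 0.658 in delta cells. Higd1a, a hypoxia-induced protein of mitochondria, had 56 UMIs in PP cells and 3 in delta cells, a ratio of 38.6 (12.54 to 193) over both libraries. Its PP level was higher in library 2 (11.01 and 98.3 CPM). The log2 ratio within a library, with 0.5 UMI added to each sum, was 2.95 in library 1 and 5.92 in library 2. In alpha cell cluster 1 of the same libraries, all 12 of the named rises stood above both delta sums in each library, among them Pappa2 at 579 and 523 CPM.

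Among the largest falls, chosen by the same rule, Cd24a, a glycosylphosphatidylinositol-anchored surface protein, had 4.13 and 12.3 CPM in PP cells, against 511 and 580 in delta cells (log2 fold change -6.14 ± 0.34, edgeR adjusted p = 6.37e-29). Mef2c, a MADS-box factor of muscle and neurons, had 0 and 2 UMIs in PP cells, against 170 and 236 in delta cells, a ratio of 98.2 of delta over PP cells (27.0 to 814). The levels of both genes in PP cells were close to 0 in each library. Ly6h, a neuronal surface protein, had 15.1 and 38.9 CPM in PP cells, against 554 and 486 in delta cells (-4.37 ± 0.26). Arg1, the arginase of the urea cycle, had 28.9 and 55.3 in PP cells, against 669 and 705 in delta cells (-4.10 ± 0.27).

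Pcp4, a regulator of calmodulin, fell (-4.24 ± 0.36), as did Nnat, an imprinted proteolipid of the endoplasmic reticulum (-3.80 ± 0.31), and Shisal2b (-4.23 ± 0.27). P2ry1, a receptor for ADP, had 4.13 and 2.05 CPM in PP cells, against 48.4 and 59.2 in delta cells (-4.08 ± 0.50). Dpp6, an auxiliary subunit of A-type potassium channels, fell (-3.89 ± 0.30), and so did Frzb, a secreted antagonist of Wnt ligands (-3.72 ± 0.31). In alpha cell cluster 1 all 12 of the named falls stood below both delta sums in each library, and in beta cell cluster 0 this held for 11 of 12, the exception being P2ry1.

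**Figure D2:**
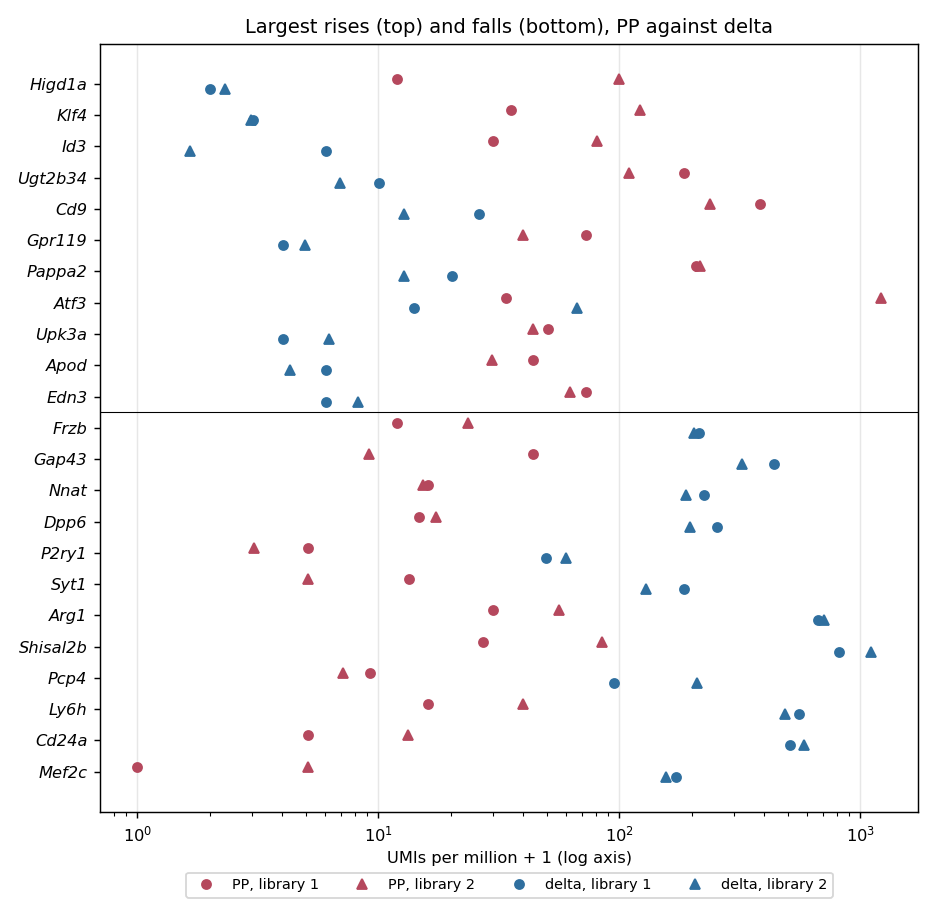
CPM plus 1 (log axis) of 11 of the 12 genes with the largest rise (above the line) and the 12 with the largest fall (below it), where red marks PP cells, blue delta cells, circles library 1 and triangles library 2. PP and delta points of Pappa2 (206 and 215 against 19.2 and 11.8) and Cd24a (4.13 and 12.3 against 511 and 580) lie far apart, while Atf3 is high in PP cells of library 2 alone.

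Gene lists, 14 in all, were described by the count of members past the same threshold and by their median log2 fold change, to be read beside the 6.98% of all genes that were higher, the 6.27% that were lower and the median of -0.03. Members that failed the low-count filter were not tested.

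Islet transcription factors differed in both directions: of 36 listed, 33 were tested, 5 were higher and 9 lower in PP cells (median -0.23). Neurog3, which starts endocrine development, had 1.38 and 6.14 CPM in PP cells, against 126 and 126 in delta cells (-5.17 ± 0.46). It separated the clusters in each library. Pdx1, the beta and delta cell homeobox factor, had 30.3 and 34.8 in PP cells, against 139 and 143 in delta cells (-2.14 ± 0.26). Rfx6 fell (-2.26 ± 0.25), as did Mlxipl, the carbohydrate-responsive factor ChREBP (-2.21 ± 0.24), whereas Nkx2-2 rose (1.20 ± 0.19). In the fit with no library block, 3 of the list were higher and 6 lower.

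Of 49 receptors of hormones and transmitters listed, 33 were tested, 5 were higher and 11 lower in PP cells (median -0.29). Glp1r, the receptor for glucagon-like peptide 1, had 17.9 and 36.9 CPM in PP cells, against 61.6 and 122 in delta cells (-1.83 ± 0.35). Ramp1, the partner of the receptors for calcitonin gene-related peptide, had 52.3 and 49.2 in PP cells, against 184 and 210 in delta cells (-1.96 ± 0.23). Both were lower in PP cells within each library, and the sign was alike in each library for 1526 of the 1530 called genes. Adra2a, the alpha-2A adrenergic receptor, fell (-2.24 ± 0.51), and Oxtr, the oxytocin receptor, fell (-2.01 ± 0.47). Chrm3, the M3 muscarinic receptor that responds to vagal acetylcholine, rose (1.17 ± 0.34), and Galr1, a galanin receptor, rose (1.96 ± 0.63). The fit with no library block left 1 of the list higher and 4 lower, and Glp1r, Oxtr, Chrm3 and Galr1 lost their calls. Chrm3 and Galr1 also lost them without TMM, and Chrm3 with DESeq2.

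Ion channel genes were lower more often than higher, with 2 higher and 11 lower of 30 tested among 38 listed (median -0.52, or -0.48 with genes at 0 in a cluster set to their bound). Kcnb2, a voltage-gated potassium channel, had 1 UMI in PP cells and 85 in delta cells, a ratio of 41.1 of delta over PP cells (7.19 to 1643). Kcnip1, a partner of A-type channels as is Dpp6, had 11.01 and 10.2 CPM in PP cells, against 67.6 and 96.7 in delta cells (-2.95 ± 0.35). Scn9a, a voltage-gated sodium channel, fell (-1.42 ± 0.26), and Abcc8, the sulphonylurea receptor of the ATP-sensitive potassium channel, fell (-0.72 ± 0.19). Kcnh6, a potassium channel of the ERG family, rose with 56.4 and 45.1 in PP cells, against 5.05 and 5.92 in delta cells (3.13 ± 0.43). Only 2 were higher and 5 lower with no library block in the fit. There Abcc8 lost its call.

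Neurite and cell adhesion genes had 4 higher and 17 lower of 42 tested among 56 listed (median -0.48). Gap43, a protein of growth cones, had 42.7 and 8.19 CPM in PP cells, against 437 and 322 in delta cells (-3.73 ± 0.29). Mapt, which encodes tau, fell (-2.73 ± 0.36), as did the neuronal tubulin Tubb3 (-2.60 ± 0.50) and the adhesion molecule Cadm1 (-2.42 ± 0.32). The cadherins Cdh1 (-0.98 ± 0.23) and Cdh2 (-0.93 ± 0.22) were also lower. The actin-binding peptide Tmsb4x rose (1.17 ± 0.20). Counts were 3 higher and 12 lower with no library block in the fit. There Cdh2 lost its call. Markers of neurons and Schwann cells were near 0 in both clusters, with the 6 listed genes summing to 8.26 and 10.2 CPM in PP cells and 8.07 and 16.5 in delta cells.

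Cyclic AMP and G protein genes had 1 higher and 11 lower of 40 tested among 47 listed (median -0.44). Rgs9, a regulator that shortens G protein signals, had 22.02 and 22.5 CPM in PP cells, against 113 and 105 in delta cells (-2.29 ± 0.28). Prkacb, a catalytic subunit of protein kinase A, fell (-0.82 ± 0.18), and Gnai1, an inhibitory G protein subunit, rose (1.57 ± 0.28). Without the library block, 0 were higher and 2 lower, and Prkacb and Gnai1 lost their calls.

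The machinery of granules and release changed in single members. Among 25 prohormone and granule genes, 24 were tested, 3 were higher and 5 lower (median -0.0028). Scg5, a chaperone of the convertase PC2, had 4337 and 3690 CPM in PP cells, against 1770 and 1744 in delta cells (1.19 ± 0.20). Chgb, the granule protein chromogranin B, had 1440 and 1280 in PP cells, against 3110 and 3215 in delta cells (-1.22 ± 0.19). Of the granule genes, 2 were higher and 4 lower without the library block. Of 38 exocytosis genes, 33 were tested, 5 were higher and 4 lower (median 0.01, and without TMM -0.25, which is 0.03 relative to all genes). Syt1, a calcium sensor of vesicle fusion, had 12.4 and 4.10 in PP cells, against 185 and 128 in delta cells (-4.08 ± 0.36). The small GTPases of vesicle docking were unequal, since Rab3b fell (-1.76 ± 0.21) and Rab3c rose (3.17 ± 0.39). Of the exocytosis genes, 3 were higher and 4 lower without the library block.

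Secreted factors had 5 higher and 7 lower of 26 tested among 46 listed (median -0.40, or -0.15 with genes at 0 in a cluster set to their bound). Ttr, the thyroid hormone carrier transthyretin, had 6810 and 16275 CPM in PP cells, against 767 and 965 in delta cells (3.68 ± 0.36). Sfrp5 (1.56 ± 0.21) and Wnt4 (1.00 ± 0.24), an antagonist and a ligand of Wnt signalling, rose, and Vegfa, which acts on blood vessels, fell (-1.06 ± 0.22). Ptn, the growth factor pleiotrophin, had 3 UMIs in PP cells and 144 in delta cells, a ratio of 23.2 of delta over PP cells (7.79 to 114). Of this list, 3 were higher and 5 lower with no library block in the fit. There Wnt4 lost its call.

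Glucose and pyruvate genes had 2 higher and 3 lower of 37 tested among 44 listed (median 0.12, and without TMM -0.13, which is 0.15 relative to all genes). Pdk4, the kinase that inhibits pyruvate dehydrogenase, rose (3.42 ± 0.57). Amino acid genes had 5 higher and 6 lower of 31 tested among 45 listed (median 0.23, and without TMM -0.03, which is 0.25 relative to all genes). Ddc, the decarboxylase that makes dopamine and serotonin, had 281 and 375 CPM in PP cells, against 45.4 and 75.7 in delta cells (2.37 ± 0.23). Nuclear genes of the respiratory chain had 12 higher and 0 lower of 71 tested among 72 listed (median 0.24, and without TMM -0.01, which is 0.27 relative to all genes, with 2 higher and 1 lower). Sdhd, an anchor subunit of succinate dehydrogenase, had 296 and 252 in PP cells, against 137 and 113 in delta cells (1.13 ± 0.19). Without the library block, 1 glucose gene was higher and 0 lower, 4 amino acid genes were higher and 2 lower, and 1 respiratory chain gene was higher and 0 lower.

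Genes of folding in the endoplasmic reticulum had 10 higher and 1 lower of 39 tested among 42 listed (median 0.30), against 4 higher and 3 lower without TMM and 1 higher and 0 lower without the library block. P4hb, protein disulphide isomerase, had 639 and 692 CPM in PP cells, against 315 and 337 in delta cells (1.03 ± 0.20). Ddit3, the stress factor CHOP, had 96.3 and 176 in PP cells, against 54.5 and 52.6 in delta cells (1.29 ± 0.24). Wfs1, the membrane protein wolframin, fell (-1.19 ± 0.29). P4hb and Wfs1 lost their calls without the library block.

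**Figure D3:**
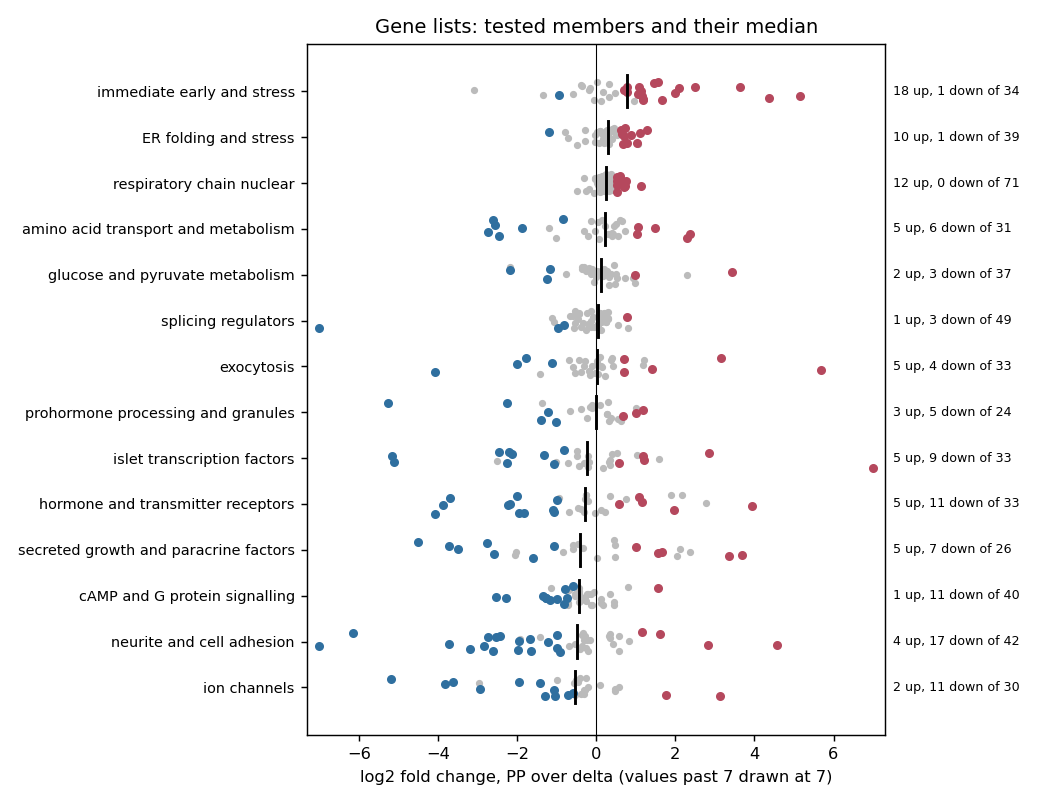
Log2 fold change of PP over delta cells for each tested member of 14 gene lists, where red and blue points passed the threshold as higher and lower, grey points did not, and the black bar is the median of the list. Immediate early genes (18 up, 1 down of 34) lie at the top and ion channels (2 up, 11 down of 30) at the bottom, and genes with no UMI in a cluster are drawn at a fitted value that depends on the prior count.

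Immediate early and stress genes, which many cells switch on within minutes of a stimulus, had 18 higher and 1 lower of 34 tested among 36 listed (median 0.78, with 15 higher and 2 lower without TMM). Without the library block 2 were higher and 0 lower, and Fos, Junb, Atf3 and Hspa1a were among those that lost their calls. Hspa1a also lost its call with DESeq2. Fos had 1546 and 4735 CPM in PP cells, against 659 and 2094 in delta cells (1.19 ± 0.20), and Junb had 440 and 1059 in PP cells, against 150 and 307 in delta cells (1.67 ± 0.19). Library 2 was higher than library 1 in both clusters, and PP cells were higher than delta cells within each library. Atf3, a stress-induced repressor, had 33.0 and 1221 in PP cells, against 13.1 and 65.8 in delta cells (3.63 ± 0.32), so most of its difference lay in library 2. Klf4, a zinc finger factor, had 34.4 and 121 in PP cells, against 2.02 and 1.97 in delta cells (5.15 ± 0.48). The gene that fell, Hspa1a, a heat shock chaperone, had 15.1 and 166 in PP cells, against 20.2 and 340 in delta cells (-0.94 ± 0.26).

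Over all 34 tested immediate early and stress genes, the log2 ratio of PP over delta cells was positive in both libraries for 23, negative in both for 6 and of unlike sign for 5, with medians of 0.67 in library 1 and 0.76 in library 2. Among the 19 past the threshold, which the test selects for agreement, 18 were positive in both libraries. The list summed to 8803 and 20721 CPM in PP cells, against 6027 and 11118 in delta cells. Median UMIs per cell were also higher in PP cells, at 1.33 and 1.31 times the library's median, against 0.980 and 0.904 times in delta cells. The part of this depth in the result was not tested. One alternative thinned the sums to equal totals within each library, with 1334 genes called among all tested. It left depth per cell unequal, because sums and not cells were thinned.

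**Figure D4:**
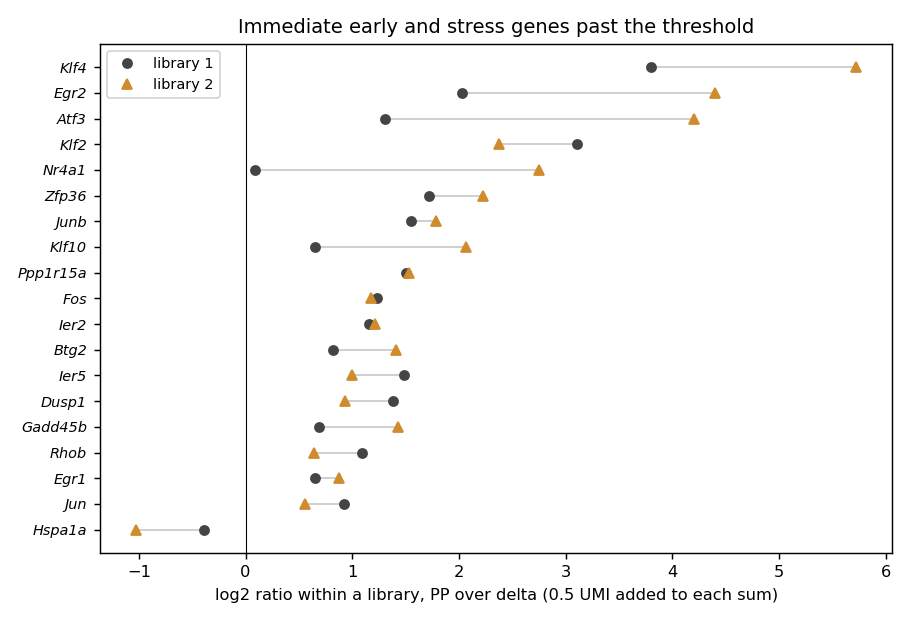
Log2 ratio of PP over delta cells within library 1 (circles) and library 2 (triangles) for the 19 immediate early and stress genes past the threshold, with 0.5 UMI added to each sum. In 18 genes both points lie above 0, Hspa1a lies below 0 in both, and Atf3, Nr4a1 and Egr2 have their larger ratio in library 2.

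Some markers of other cell types moved with the groups. Spp1, an osteopontin gene listed for duct cells, had 684 and 397 CPM in PP cells, against 49.4 and 40.1 in delta cells (3.56, edgeR adjusted p = 1.7e-28), and the keratin Krt18 was higher (1.19). Krt8 passed (0.97) with 164 and 594 in PP cells, against 170 and 190 in delta cells, so it was higher in library 2 alone, and it lost its call without the library block and with DESeq2. The defining duct genes were at or near 0, with Cftr at 0 in all 4 sums, Sox9 at 0 and 0 in PP cells and 5.05 and 5.26 in delta cells, and Krt19 at 1.38 and 0 in PP cells and 0 and 0 in delta cells. The 7 duct genes summed to 1306 and 1753 in PP cells, against 510 and 482 in delta cells. Of 8 alpha markers tested, 4 were higher, Gcg, Ttr and Slc7a2 among them, and Slc38a5 was lower, and the list summed to 31879 and 48803 in PP cells, against 6417 and 4058 in delta cells. Of 9 beta markers 7 were lower and 0 higher, and the list summed to 8124 and 12581 in PP cells, against 37314 and 41533 in delta cells. Endothelial genes summed to 30.3 and 47.1 in PP cells, against 18.2 and 25.7 in delta cells. Among them Esam passed as higher in PP cells (1.21, edgeR adjusted p = 0.0486). Esam lost its call with DESeq2 (adjusted p = 0.193) and without the library block (edgeR adjusted p = 0.224), among other alternatives. Acinar genes summed to 35.8 and 75.8 against 145 and 224, mostly from Cela1 (35.8 and 51.2 against 140 and 189). Cela1 lost its call with DESeq2 (adjusted p = 0.332) and without the library block (edgeR adjusted p = 0.163). Macrophage genes summed to 131 and 125 against 143 and 154, nearly all from C1qa. The part of admixed cells in these results was not tested directly. A refit on cells whose most abundant hormone gene was their own called 1409 genes. Of 193 called genes in the marker lists, the gene lists and the largest changes, 10 lost their call there. With cells of the same type in both of the authors' clusterings 4 lost it, and without the cells of highest doublet score 5 did.

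Few genes passed the test of transcript usage. Of 3013 genes tested for a change in the shares of their annotated transcripts, 2 passed (0.0664%), Gnas and Rpl22l1, and of 7334 transcripts 9 passed (0.123%), with 97 genes at an unadjusted p under 0.05. Splicing regulators had 1 higher and 3 lower of 49 tested among 54 listed (median 0.05, and without TMM -0.20, which is 0.07 relative to all genes), and without the library block 0 were higher and 1 lower. Rbfox3, a neuronal splicing factor, had no UMI in PP cells and 26 and 27 in delta cells, which is at least 8.55-fold lower in PP cells.

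Gnas (chr2:174284320-174346744, plus strand, GRCm38) differed in where its transcripts began. The locus encodes the stimulatory G protein subunit Gs-alpha and uses several first exons that splice to shared downstream exons. Transcripts from the Nesp exons encode NESP55, a chromogranin-like granule protein, and come from the maternal allele in mice. The Gnasxl exon gives the long form XL-alpha-s, exon 1A gives mostly non-coding transcripts from the paternal allele, and exon 1 gives Gs-alpha. The counts here do not separate alleles.

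Nesp transcripts made up 13.0 and 21.7% of Gnas transcript UMIs in PP cells (50 of 384 and 59 of 272), against 81.5 and 86.8% in delta cells (1054 of 1293 and 1344 of 1549). The mean was 17.4 ± 6.13% in PP cells and 84.1 ± 3.71% in delta cells (SD, n = 2 each). PP cells lay below delta cells by 68.5 points in library 1 and 65.1 points in library 2. Exon 1A transcripts made up 52.3 and 54.0% in PP cells, against 6.96 and 4.45% in delta cells. Gs-alpha exon 1 transcripts made up 34.4 and 23.5% in PP cells, against 8.28 and 6.00% in delta cells. The Gnasxl exon held 0.260 and 0.735% in PP cells and 3.09 and 2.58% in delta cells. In each class the libraries of one cluster lay closer to each other than to the other cluster.

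The first 60 coding bases of the NESP55 and Gs-alpha reading frames are shown because they are the parts that the first exons do not share (GENCODE M21, GRCm38, plus strand, 5′ to 3′, start codon in capitals). They lie at chr2:174284674-174284733 and chr2:174330296-174330355, and the start codons are 45622 bp apart.
NESP55: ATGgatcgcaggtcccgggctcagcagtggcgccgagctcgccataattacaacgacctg
Gs-alpha: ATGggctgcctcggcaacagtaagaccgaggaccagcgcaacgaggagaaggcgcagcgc

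Of 7 Gnas transcripts past their own threshold, 2 had a lower share in PP cells and 5 a higher one. Gnas-211, which carries the Nesp exons, held 10.4 and 18.01% in PP cells, against 62.3 and 67.9% in delta cells, a difference of -50.9 ± 1.47 points (SD over libraries, edgeR diffSpliceDGE adjusted p = 8.01e-06), and without the library block its adjusted p was 0.653. Gnas-221, a non-coding transcript of exon 1A, held 14.8 and 21.3% in PP cells, against 0.773 and 0.904% in delta cells (edgeR adjusted p = 5.19e-11). Gnas-208, which encodes Gs-alpha from exon 1, held 22.7 and 14.7% in PP cells, against 5.34 and 4.00% in delta cells (edgeR adjusted p = 0.00104). Without the library block Gnas-208, Gnas-222 and Gnas-202 did not pass (edgeR adjusted p = 0.699, 0.180 and 0.653), while Gnas-217, Gnas-219 and Gnas-221 did. Gnas-202 starts in exon 1A and is annotated to read on through the Gs-alpha start codon, and without it exon 1A still held 29.7 and 44.1% in PP cells, against 1.55 and 2.00% in delta cells.

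**Figure D5:**
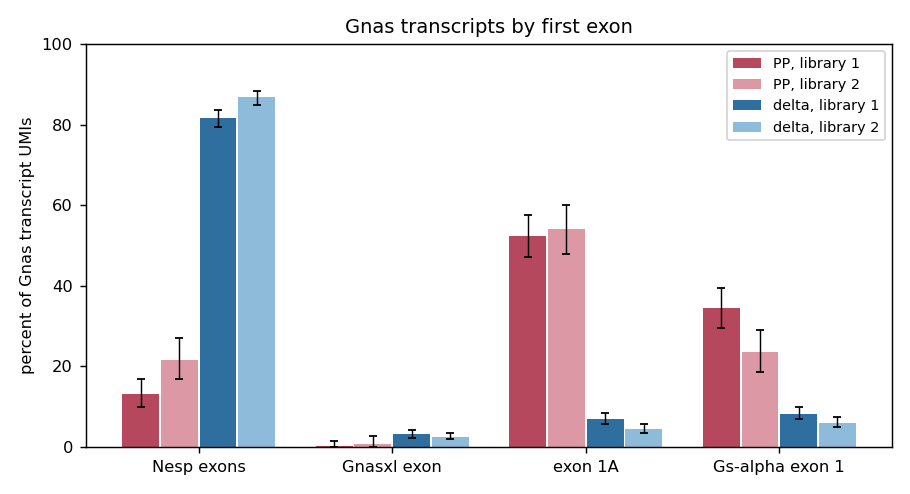
Percent of Gnas transcript UMIs by first exon, with one bar for each library of PP cells (red) and delta cells (blue) and exact 95% binomial intervals that cover counting error only. Nesp exons hold 13.0 and 21.7% in PP cells against 81.5 and 86.8% in delta cells, and exon 1A holds 52.3 and 54.0% in PP cells against 6.96 and 4.45% in delta cells.

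The level of Gnas as a whole differed less than its first exons. In the gene table it had 991 and 720 UMIs in PP cells and 2355 and 2890 in delta cells, a log2 fold change of -0.59 ± 0.20 (edgeR adjusted p = 0.0309), and this gene-level call was lost without the library block (edgeR adjusted p = 0.184) and without the cells of highest doublet score (0.0555). The transcript table holds 38.7 and 37.8% of those UMIs in PP cells, against 54.9 and 53.6% in delta cells, so the shares describe only the UMIs that were assigned to a transcript. Nesp transcripts made up 13.4 and 19.4% in alpha cluster 1 and 2.50 and 0.673% in beta cluster 0, where exon 1 held 76.1 and 85.9%. In the other clusters named for delta cells they made up 31.0 and 78.8% (cluster 7), 59.8 and 69.7% (cluster 8) and 54.2 and 53.4% (cluster 12), all below cluster 3 in the same library.

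Rpl22l1, a paralogue of the ribosomal protein gene Rpl22, passed through 1 transcript, Rpl22l1-204, annotated for nonsense-mediated decay. Its share was 2.70 and 20.9% in PP cells, against 1.68 and 6.19% in delta cells (edgeR adjusted p = 0.00800 for the transcript and 0.0395 for the gene). The difference was 1.02 points in library 1, with 7 of 259 UMIs in PP cells and 4 of 238 in delta cells, and 14.7 points in library 2, so it rests on library 2. Without the library block the transcript did not pass. The gene table has fewer UMIs of Rpl22l1 than the transcript table in each sum. Rpl22l1-204 has an exon that starts 67 bases earlier than in Rpl22l1-201, shown because those bases set it apart, up to its stop codon in capitals (GENCODE M21, GRCm38, chr3:28806670-28806762, plus strand, 5′ to 3′).
Rpl22l1-204: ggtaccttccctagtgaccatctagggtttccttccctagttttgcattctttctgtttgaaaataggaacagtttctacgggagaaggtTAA

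Lpl-202, a transcript with a retained intron of the lipoprotein lipase gene Lpl, held 1.94 and 2.35% in PP cells (2 of 103 and 2 of 85 UMIs), against 38.5 and 34.8% in delta cells (15 of 39 and 16 of 46). The transcript passed (edgeR adjusted p = 0.0211) and the gene did not (edgeR adjusted p = 0.0781), though the gene passed in 5 of 9 settings, as many as Rpl22l1. With 39 and 46 UMIs in delta cells, Lpl lies outside the rule for named transcripts and was chosen after its values were seen. Among 425 genes with at least 50 transcript UMIs in each of the 4 sums, the median transcript differed by 3.05 points. In 20 of these genes a transcript differed by at least 10 points in the same direction in both libraries.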

How the data were processed

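The authors deposited unnormalized UMI counts of genes and of transcripts in each cell, and a table with each kept cell's library and cluster, per the file headers. Builds and tools named in the submitters' processing notes are mm10 and Seurat. The sources used here do not say how reads were aligned, counted or assigned to strand. For every gene cluster of the authors that had 20 or more cells in both libraries, UMIs were summed by library (12 clusters, 24 sums). They were fitted together in edgeR 4.0.16 (TMM, filterByExpr, quasi-likelihood tests, cluster and library as terms, 11 residual degrees of freedom), with Benjamini-Hochberg adjustment at 0.05. The library was a block because every cluster comes from both libraries, so same-numbered sums share a library. The SE is the log2 fold change divided by the square root of F. Transcript shares were tested with diffSpliceDGE for transcripts with at least 10 UMIs over the 4 sums and 5% of the gene in either cluster. GENCODE M21 gave a gene to 69648 of 69994 transcripts.

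Named genes were the 12 largest rises and 12 largest falls past the threshold, above the median level, with one direction in each library and without markers, predicted and mitochondrial genes, the PP and delta markers and hormones, and up to 4 members of each of 14 lists by adjusted p. Other list members in the text were picked after their values were seen. Some genes that the rule names are not reported here. For transcripts, named genes needed at least 50 UMIs in each sum; Lpl does not meet this. The cells, the lists and the rules were chosen with earlier results of these data known. Doublets were not removed: Scrublet (scanpy 1.11.5) called 6 and 14 cells, under the expected rate, so one alternative dropped the top-scoring 6% in each library. The gene and transcript fits were tested on simulated data with 200 changed features. Every simulated feature had the same set spread, so this checks the code and not the spread between these libraries. Alternatives were 12 for genes, with DESeq2 1.42.0 among them, and 8 for shares, besides leaving out each library. The 4 sums held 611417 to 1649832 UMIs, and intervals are exact and cover counting error only.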

Additional observations from a re-analysis of the deposited data

How the results depend on the processing

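Without the replicate block, which pairs sums of one library, 570 genes passed, with 243 higher and 327 lower in PP cells, and all 570 were among the 1530. Without TMM, 359 genes were higher and 1319 lower, and with DESeq2, 476 were lower. Over the 12 alternatives for genes, no other count of called genes moved by over 1.5 times. Under the alternatives for transcript shares, 1 gene and 3 transcripts passed without the replicate block, 4 genes with only the 4 sums, and 1 gene with cells of the same type in both of the authors' clusterings. Gnas passed in all 9 fits and Rpl22l1 and Lpl in 5 each. The share test of Gnas-211 gave an edgeR adjusted p of 0.653 without the block. Of the named genes, Ghrl, which was not called, reversed to -3.35 among cells whose most abundant hormone was their own. Of 193 called genes in the marker lists, the gene lists and the largest changes, 103 lost their call without the replicate block, 39 with DESeq2 and 31 without TMM. With 1 library left out, the fit of the 2 remaining sums has no residual degrees of freedom, so no count of calls exists and only ratios were computed; Gnas-211 then differed by -51.9 to -49.8 points. With 41 PP cells in library 2 and 2 libraries a side, a gene or transcript that did not pass is not shown to be alike in PP and delta cells.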
